A study of Mus musculus with 12 samples.

Results

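The voltage-gated potassium channel (Kv) genes are described here across the mouse striatum after transient middle cerebral artery occlusion (tMCAO), a stroke model in which the artery that feeds the striatum is blocked and then reopened. Members were the protein-coding genes whose symbols fall in the Kcna, Kcnb, Kcnc, Kcnd, Kcnf, Kcng, Kcnh, Kcnq, Kcns and Kcnv families, together with the cytoplasmic beta subunit genes (Kcnab), with at least 10 counts in at least 3 libraries. The rule gave 40 of the 54532 genes counted, out of 43 protein-coding genes with such a symbol; Kcna7, Kcna10 and Kcnv2 did not reach the minimum. They fall into 6 Kv1 (Kcna), 2 Kv2 (Kcnb), 4 Kv3 (Kcnc), 3 Kv4 (Kcnd), 1 Kv5 (Kcnf), 4 Kv6 (Kcng), 5 Kv7 (Kcnq), 1 Kv8 (Kcnv), 3 Kv9 (Kcns), 8 Kv10 to Kv12 (Kcnh) and 3 beta subunit genes, and all 40 passed the filter on low counts and were tested.

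PolyA+ RNA from striatum of C57BL/6J mice was sequenced in 12 libraries, 3 in each of 4 groups. The 3d-SN011 group had tMCAO and SN-011, a compound that blocks the immune signalling protein STING, and its titles begin with 3d. The SN011 group carries the same treatment label without the prefix, the vehicle group had tMCAO and PBS, and the sham group had a sham operation and PBS. The labels give neither age nor sex, and leave the meaning of 3d unexplained. As vehicle and sham titles lack it, whatever 3d marks and the drug cannot be told apart in comparisons of 3d-SN011 with vehicle, and the SN011 and 3d-SN011 arms differ in the prefix only. Whether each library stands for its own animal is not stated, so p-values measure only the spread between these samples, which may be technical.

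Kv channels open when the membrane depolarises and let potassium out, which repolarises the cell and sets the shape and timing of action potentials. A channel is a tetramer of pore-forming alpha subunits, usually of 1 subfamily. Kv5, Kv6, Kv8 and Kv9 subunits form no channel of their own and join Kv2 subunits, and beta subunits bind the cytoplasmic side of Kv1 channels. In striatal projection neurons, which make up most neurons of the striatum, A-type currents of Kv4 and Kv1 subunits delay firing, and the M-current of Kv7 channels damps repeated firing.

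Levels are given as CPM, read counts scaled to a common library total and adjusted for library composition (TMM). Genes are compared with each other as CPM per kilobase of exon (RPKM). Fold changes are log2 values from edgeR, and a gene was called where the Benjamini-Hochberg adjusted p over all 18537 genes tested was under 0.05. Libraries held 15806076 to 18622053 counts. The striatal identity of the tissue was clear in sham, where 14 marker genes of striatal projection neurons summed to 11171 to 12166 CPM. Markers of neighbouring tissue varied within groups: 7 cortical and thalamic neuron genes summed to 99.8, 404 and 278 CPM in the sham libraries, and 5 choroid plexus and ependyma genes to 2459, 1196 and 104 CPM.

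In the 3d-SN011 libraries Kv RNA fell across nearly every subfamily. Together the 40 genes summed to 794.9, 1149 and 1505 CPM in 3d-SN011, 3757, 4246 and 2698 CPM in SN011, 4169, 4227 and 4070 CPM in vehicle and 4454, 4546 and 4319 CPM in sham. Every 3d-SN011 library lay below every other library. Of the 40 genes, 27 were called lower in 3d-SN011 than in vehicle, 1 was called higher and 12 were not called (edgeR quasi-likelihood test). Across all genes tested in that comparison 28.2% were called lower and 28.9% higher. The median log2 fold change was -1.42 for the Kv genes and 0.01 for all genes. An unadjusted p under 0.05 was reached by 29 Kv genes and 61.8% of all genes. For 26 Kv genes every 3d-SN011 library lay below every vehicle library, as for 30.0% of all genes, and for 1 above, as for 29.5%. Against SN011, 26 were called lower and 1 higher, with 22.9% and 23.6% of all genes called in those directions, and the median was -1.33, against 0.03 for all genes. There 29 Kv genes and 54.0% of all genes had an unadjusted p under 0.05, and libraries lay apart for 26 lower and 1 higher Kv gene, as for 25.7% and 24.6% of all genes. These comparisons share the 3d-SN011 libraries. There, 3d-SN011 replicate 1 held the lowest value of its group for 26 of the 40 genes, against 34.1% of all genes.

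Pan-neuronal and striatal projection neuron markers fell in the same libraries. All 12 genes of a pan-neuronal list were called lower in 3d-SN011 than in vehicle, with a median log2 fold change of -1.65, and their summed level was 1332 to 2189 CPM in 3d-SN011 and 5518 to 5708 CPM in vehicle. All 14 striatal projection neuron genes were called lower, with a median of -2.62, and summed to 558.8 to 2922 CPM in 3d-SN011 and 11393 to 11942 CPM in vehicle. No gene of either list was at 0 counts throughout a group. Of 11 striatal interneuron genes, 7 were called lower, while Sst, Npy, Pvalb and Calb2 were not called. Of 7 cortical and thalamic neuron genes, 0 were called lower and 2 higher, where 28.2% and 28.9% of all genes were. All 7 microglia markers, all 5 astrocyte markers and 4 of 5 oligodendrocyte markers were called higher, and the microglia list summed to 2039 to 3460 CPM in 3d-SN011 and 337.8 to 384.8 CPM in vehicle. The astrocyte list summed to 6830 to 10759 CPM in 3d-SN011 and 793.6 to 1180 CPM in vehicle, and the oligodendrocyte list to 14336 to 23003 CPM in 3d-SN011 and 8201 to 10256 CPM in vehicle. The part of these shifts in the Kv results was not tested, and in whole striatum fewer cells of a type and less RNA per cell cannot be told apart.

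**Figure D1:**
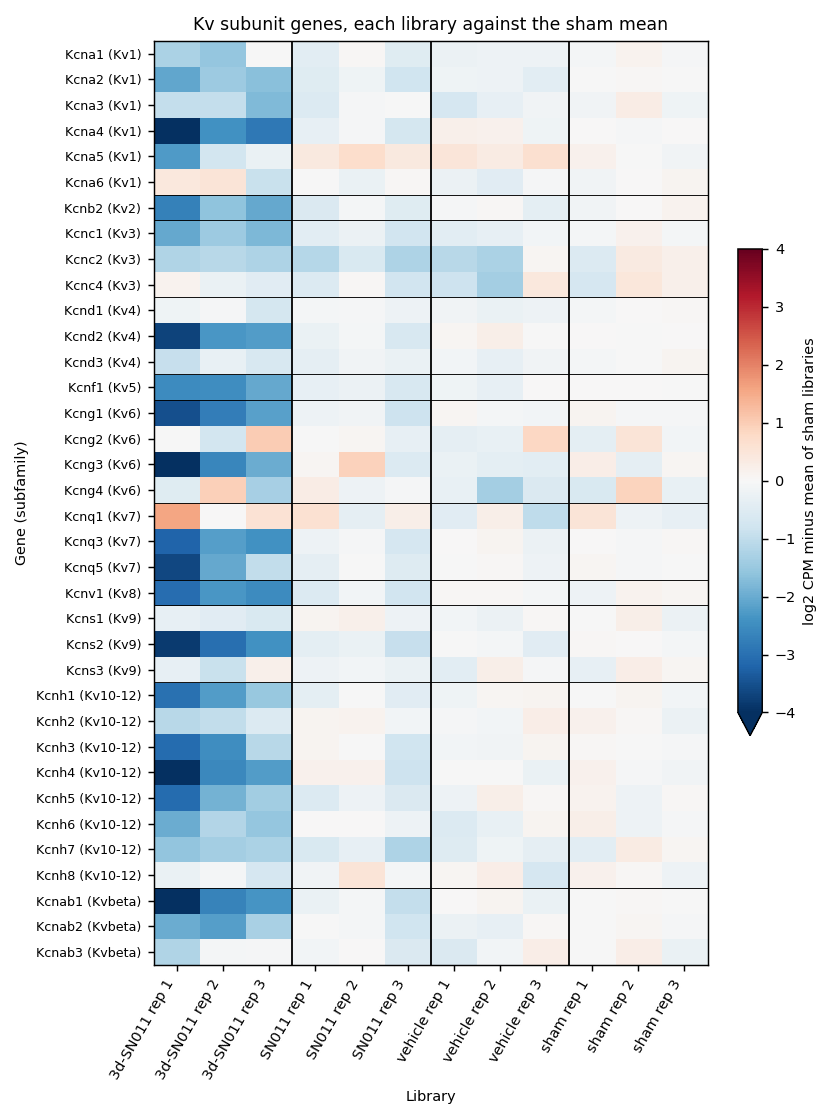
Level of 36 of the 40 Kv genes in each library, as the difference of its log2 CPM from the mean of the sham libraries (colour, log2 units). Genes run down the page by subfamily and libraries run across by group, and values under -4 take the darkest blue. The 3d-SN011 columns are blue for most genes, while SN011, vehicle and sham columns stay near white, with SN011 replicate 3 the bluest of the other 9.

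Within Kv1, the delayed rectifier and A-type subunits of axons, the 6 genes split. Kcna4 (ENSMUSG00000042604, GRCm38 chromosome 2, 107290639 to 107298502) encodes the rapidly inactivating A-type subunit and had the largest fall of all 40 genes against vehicle, while against SN011 Kcng3 (-3.28) and Kcnh4 (-2.70) lay below it (-2.64). Kcna4 stood at 4.81, 15.5 and 11.3 CPM in 3d-SN011, 65.6, 80.02 and 50.7 CPM in SN011, 95.7, 93.2 and 72.9 CPM in vehicle and 84.1, 80.8 and 83.8 CPM in sham. All 3d-SN011 values lay below all others, without overlap. Against vehicle the log2 fold change of Kcna4 was -3.05 (SE 0.32, adjusted p = 1.59e-05, edgeR quasi-likelihood test). Kcna2, the Kv1 gene with the highest RPKM averaged over the 12 libraries and a subunit of axonal channels flanking the nodes of Ranvier, was also called lower. Kcna2 stood at 68.6, 106 and 90.5 CPM in 3d-SN011, 209, 255 and 166 CPM in SN011, 255, 254 and 217 CPM in vehicle and 283, 299 and 286 CPM in sham. The 3d-SN011 libraries again lay below the rest. The log2 fold change against vehicle was -1.46 for Kcna2 (SE 0.18, adjusted p = 3.21e-05, edgeR).

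Kcna3 was counted at 3.02, 2.97 and 1.67 CPM in 3d-SN011, 3.99, 5.67 and 5.81 CPM in SN011, 3.62, 4.69 and 5.34 CPM in vehicle and 5.34, 7.27 and 5.26 CPM in sham. The subunit it encodes is best known from T lymphocytes and microglia. The 3d-SN011 values were the 3 lowest, the log2 fold change was -0.83 (SE 0.28, adjusted p = 0.023, edgeR), but the gene stood at 7.27 CPM or less in every library, and the call was lost without vehicle replicate 2 (adjusted p = 0.0565), without vehicle replicate 3 (0.0809) or without 3d-SN011 replicate 3 (0.0679). Kcna5, which encodes the subunit of the ultrarapid delayed rectifier of the atrium, was called lower in 3d-SN011 than in vehicle with a log2 fold change of -1.37 (SE 0.34, adjusted p = 0.00427 by edgeR). The remaining Kv1 genes, Kcna1 and Kcna6, were not called.

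Kcna6 (ENSMUSG00000038077, GRCm38 chromosome 6, 126708329 to 126740674) encodes a further dendrotoxin-sensitive Kv1 subunit. It stood at 74.3, 78.5 and 29.7 CPM in 3d-SN011, 54.4, 45.7 and 56.4 CPM in SN011, 46.6, 39.8 and 53.2 CPM in vehicle and 49.7, 55.6 and 59.8 CPM in sham. Replicates 1 and 2 of 3d-SN011 were the 2 highest of all 12 libraries and replicate 3 was the lowest. Its log2 fold change against vehicle was 0.39 (SE 0.27, adjusted p = 0.241, edgeR quasi-likelihood test), and without 3d-SN011 replicate 3 the gene was called higher against both vehicle and SN011. An antisense gene, Gm26673, shares 39.6% of the exonic length of Kcna6, and as no strand setting is known, reads of the pair cannot be told apart; Gm26673 itself was counted at 1.54 CPM or less in all 12 libraries. Kcna1, an axonal partner of Kcna2, behaved the other way, at 42.2, 34.5 and 99.5 CPM in 3d-SN011 and 86.0, 88.8 and 87.5 CPM in vehicle, so that replicate 3 lay above every vehicle library. These genes were chosen for display after their values were seen.

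Some Kv1 genes are neighbours on the chromosome. On chromosome 6, Kcna5, Kcna1 and Kcna6 lie in a row, 105 kb and 61.9 kb apart, and had log2 fold changes of -1.37, -0.57 and 0.39 in 3d-SN011 against vehicle, of which that of Kcna5 passed the test. On chromosome 3, Kcna3 and Kcna2 lie 63.1 kb apart and had -0.83 and -1.46, both called lower. Differences between neighbours were not tested.

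The make-up of Kv1 RNA differed too. Kcna4 made up 3.20%, 8.38% and 5.4985% of the summed Kv1 RPKM in 3d-SN011, 20.2%, 20.2% and 17.2% in SN011, 25.2%, 25.1% and 20.3% in vehicle and 21.7%, 19.7% and 21.5% in sham. The 3d-SN011 shares did not overlap with any other group. Kcna6 made up 40.2%, 34.6% and 11.8% in 3d-SN011 and 9.96%, 8.70% and 12.1% in vehicle, and here replicate 3 of 3d-SN011 lay among the vehicle libraries. With 3 libraries a group an exact two-sided permutation test of such a share cannot go below 0.1.

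Kv4 subunits carry the A-type current of dendrites and cell bodies, and their 3 genes differed widely. Kcnd2 (ENSMUSG00000060882, GRCm38 chromosome 6, 21215503 to 21729805) was the third most abundant Kv gene of sham striatum by RPKM. Kcnd2 stood at 18.0, 47.1 and 50.8 CPM in 3d-SN011, 197, 222 and 151 CPM in SN011, 253, 278 and 236 CPM in vehicle and 242, 232 and 237 CPM in sham. The 3d-SN011 libraries lay below all others, replicate 1 lowest. For Kcnd2 the log2 fold change of 3d-SN011 over vehicle came to -2.72 (SE 0.30, adjusted p = 1.95e-05, edgeR). Kcnd3 (ENSMUSG00000040896, GRCm38 chromosome 3, 105452330 to 105674002), a subunit found in interneurons as well, had the smallest fall of the 27 genes called lower. Kcnd3 stood at 25.7, 39.3 and 31.4 CPM in 3d-SN011, 38.0, 44.6 and 40.5 CPM in SN011, 45.5, 38.7 and 44.5 CPM in vehicle and 46.5, 47.7 and 52.1 CPM in sham. The 3d-SN011 values overlapped with those of vehicle. With a log2 fold change of -0.42, Kcnd3 differed from vehicle at an adjusted p of 0.0259 (SE 0.14, edgeR). That call was lost without vehicle replicate 1 (adjusted p = 0.0849), without vehicle replicate 3 (0.0682), without 3d-SN011 replicate 1 (0.0985) or with offsets for GC content and gene length (-0.31, adjusted p = 0.0833), and against SN011 the gene was not called (adjusted p = 0.0618). Kcnd1, the third Kv4 gene, averaged 18.2 ± 4.18 CPM in 3d-SN011 and 19.3 ± 0.978 CPM in vehicle (SD, n = 3 each) and was not called, with a log2 fold change of -0.08 (SE 0.16, adjusted p = 0.673 by edgeR).

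Kcnd2 made up 35.3%, 52.9% and 62.9% of the summed Kv4 RPKM in 3d-SN011, 82.8%, 83.3% and 78.8% in SN011, 85.1%, 87.8% and 84.7% in vehicle and 84.1%, 83.0% and 82.4% in sham. The 3d-SN011 shares lay below those of every other group. Kcnd3 made up 20.9% to 27.1% in 3d-SN011 and 6.58% to 8.59% in vehicle, and Kcnd1 16.2% to 37.6% in 3d-SN011 and 5.63% to 6.76% in vehicle. Shares are parts of a whole, so these were larger where that of Kcnd2 was smaller. By the test of levels against vehicle, Kcnd3 was called lower and Kcnd1 was not called.

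The stretch before the transcription start is shown for Kcna4 and Kcnd2, which fell most in the Kv1 and Kv4 subfamilies, and for Kcna6 and Kcnd3, which were not called or fell little, so that promoters of unlike members can be set side by side. Each is the 250 bases upstream of the RefSeq start on GRCm38.p6, 5′ to 3′ on the strand of the gene, with capitals for the GC box motif (GGGCGG on either strand):
Kcna4, chr2:107290339-107290588, plus strand: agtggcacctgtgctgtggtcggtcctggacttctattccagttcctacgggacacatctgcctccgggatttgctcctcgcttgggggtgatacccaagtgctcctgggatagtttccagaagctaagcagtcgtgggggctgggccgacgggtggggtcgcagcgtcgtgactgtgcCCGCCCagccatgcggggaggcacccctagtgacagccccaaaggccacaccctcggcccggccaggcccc
Kcna6, chr6:126740675-126740924, minus strand: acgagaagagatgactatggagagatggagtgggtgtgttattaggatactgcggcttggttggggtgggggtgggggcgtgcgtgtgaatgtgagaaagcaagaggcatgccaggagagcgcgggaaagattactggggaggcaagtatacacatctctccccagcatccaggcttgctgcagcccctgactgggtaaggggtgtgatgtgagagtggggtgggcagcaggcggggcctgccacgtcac
Kcnd2, chr6:21215096-21215345, plus strand: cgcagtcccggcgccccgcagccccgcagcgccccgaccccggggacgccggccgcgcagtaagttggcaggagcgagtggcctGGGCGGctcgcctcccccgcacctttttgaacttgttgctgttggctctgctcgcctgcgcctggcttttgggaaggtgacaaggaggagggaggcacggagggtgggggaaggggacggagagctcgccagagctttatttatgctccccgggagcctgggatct
Kcnd3, chr3:105451640-105451889, plus strand: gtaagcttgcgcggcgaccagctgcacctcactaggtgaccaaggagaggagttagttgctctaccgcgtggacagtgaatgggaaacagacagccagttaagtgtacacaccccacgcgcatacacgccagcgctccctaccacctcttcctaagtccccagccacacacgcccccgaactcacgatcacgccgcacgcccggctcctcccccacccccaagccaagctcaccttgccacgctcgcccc
Kcna4 and Kcnd2 each hold 1 match and Kcna6 and Kcnd3 none, in windows of 65.2%, 68.8%, 58.8% and 62.8% GC. RefSeq windows of the 250 bases before the start were at hand for 25 of the 40 genes, with a median GC content of 63.2%, against 52% over 27025 genes. GGGCGG on either strand occurred in 18 of the 25 (72%), against 32.9% of all windows. Of those 18, Kcna3, Kcna4, Kcnab1, Kcnab2, Kcnc1, Kcnd2, Kcng3, Kcnh1, Kcnh2, Kcnh4, Kcnh5, Kcnh6 and Kcnh7 were called lower in 3d-SN011 than in vehicle. Kcnc2, Kcnc4, Kcnh8, Kcns1 and Kcns3 were not called. Among all 40 Kv genes, with or without a window, 27 were called lower, and 28.2% of all genes were. TATAAA, the cAMP response element TGACGTCA and the AP-1 site TGANTCA occurred in 0 of the 25 on either strand, against 13%, 1.62% and 6.87% of all windows. A match is a run of letters in these windows and no measure of binding, and a link between matches and falls was not tested.

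**Figure D2:**
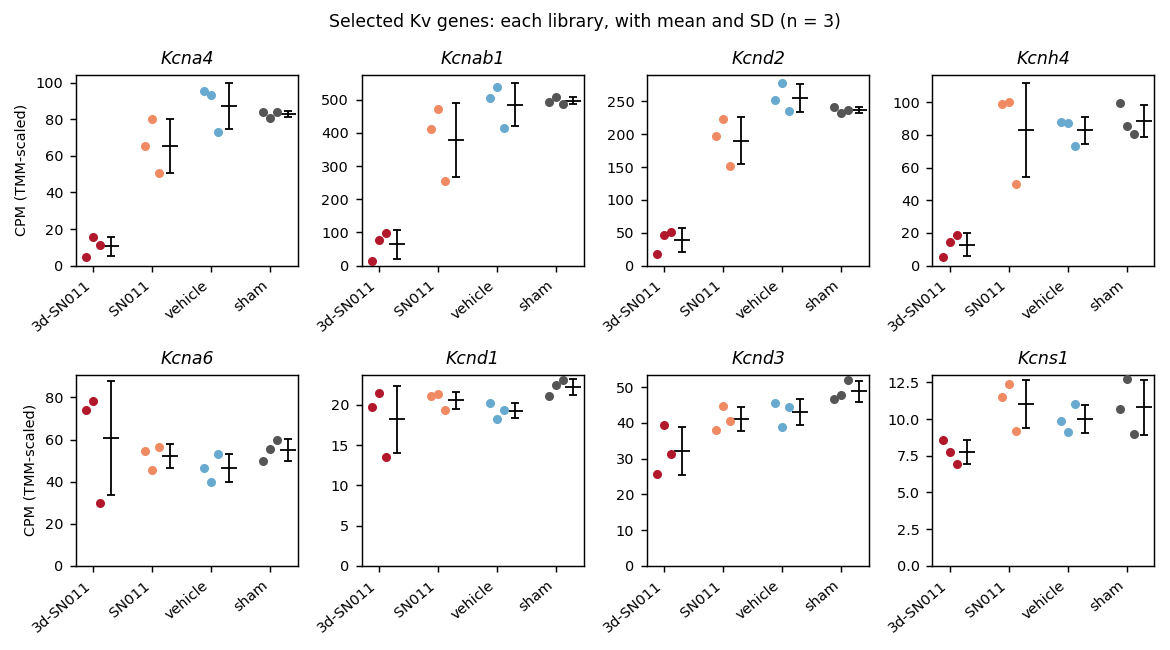
CPM (TMM-scaled) of 8 Kv genes in each library (points), with the mean and SD of the 3 libraries of each group (bars to the right of the points). The upper panels show 4 of the 6 largest falls against vehicle, where 3d-SN011 points lie below all others; in the lower panels Kcna6, Kcnd1 and Kcnd3 overlap between 3d-SN011 and vehicle and Kcns1 lies just below vehicle.

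The beta subunits, oxidoreductase-like proteins that tune inactivation and surface expression of Kv1 channels, were the most abundant Kv genes of sham striatum by RPKM. Kcnab1 averaged 57.8 and Kcnab2 55.6 RPKM there, and their sham libraries overlapped. Kcnab1 stood at 14.9, 78.4 and 97.7 CPM in 3d-SN011, 412, 471 and 256 CPM in SN011, 504, 538 and 414 CPM in vehicle and 494, 508 and 488 CPM in sham. The 3d-SN011 libraries spread widely among themselves, replicate 1 lowest, and all lay below the other groups. Against vehicle the log2 fold change of Kcnab1 was -2.93 (SE 0.49, adjusted p = 0.000273, edgeR quasi-likelihood test). Kcnab2 stood at 78.1, 67.4 and 127 CPM in 3d-SN011, 309, 294 and 178 CPM in SN011, 263, 245 and 319 CPM in vehicle and 304, 327 and 299.9 CPM in sham. The log2 fold change against vehicle was -1.60 for Kcnab2 (SE 0.25, adjusted p = 0.000146, edgeR). Kcnab1 made up 9.99%, 36.8% and 30.1% of beta subunit RPKM in 3d-SN011 and 54.2%, 56.9% and 43.8% in vehicle, without overlap. Kcnab3, the least abundant of the family, was not called, with a log2 fold change of -0.27 (SE 0.31, adjusted p = 0.484 by edgeR).

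Kv2 genes encode the delayed rectifier clustered on cell bodies and proximal dendrites. Kcnb2 averaged 3.41 ± 1.27 CPM in 3d-SN011 and 13.4 ± 2.03 CPM in vehicle (SD, n = 3 each), a log2 fold change of -1.97, and was called lower.

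Of the silent subunits that join Kv2, 5 of 9 were called lower in 3d-SN011 than in vehicle, where 28.2% of all genes were, and 4 were not called. Kcnf1 stood at 14.8, 15.1 and 20.3 CPM in 3d-SN011, 66.9, 71.8 and 54.4 CPM in SN011, 74.2, 66.9 and 85.3 CPM in vehicle and 84.4, 84.6 and 83.9 CPM in sham. With a log2 fold change of -2.17, Kcnf1 differed from vehicle at an adjusted p of 1.18e-05 (SE 0.15, edgeR). Kcnf1 encodes the Kv5 subunit, and in the 3d-SN011 libraries it lay below all others. Kcng1 stood at 4.25, 7.22 and 10.9 CPM in 3d-SN011, 43.3, 45.6 and 27.9 CPM in SN011, 53.2, 47.7 and 45.9 CPM in vehicle and 53.6, 47.8 and 48.4 CPM in sham. Against vehicle the log2 fold change of Kcng1 was -2.72 (SE 0.27, adjusted p = 1.55e-05, edgeR quasi-likelihood test). Kcng1 encodes a Kv6 subunit. Kcnv1 stood at 8.09, 13.6 and 11.8 CPM in 3d-SN011, 46.8, 63.1 and 39.8 CPM in SN011, 70.8, 70.3 and 64.5 CPM in vehicle and 58.8, 75.2 and 72.2 CPM in sham. For Kcng1 and for Kcnv1, the Kv8 gene, the 3d-SN011 libraries lay below all others. The log2 fold change against vehicle was -2.62 for Kcnv1 (SE 0.21, adjusted p = 1.22e-05, edgeR). Kcng3, a Kv6 gene at 2.85 to 8.07 CPM in the other groups, was listed at 0 in 3d-SN011 replicate 1 and at 0.593 and 0.970 CPM in replicates 2 and 3, and was called lower with a log2 fold change of -2.64 (adjusted p = 0.0039, edgeR).

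The Kv9 genes again split. Kcns2 stood at 4.76, 8.40 and 12.9 CPM in 3d-SN011, 53.3, 57.3 and 36.7 CPM in SN011, 68.0, 65.7 and 50.1 CPM in vehicle and 72.1, 70.6 and 65.6 CPM in sham. The 3d-SN011 libraries lay below the rest. For Kcns2 the log2 fold change of 3d-SN011 over vehicle came to -2.82 (SE 0.29, adjusted p = 1.57e-05, edgeR). Kcns1 stood at 8.55, 7.76 and 6.95 CPM in 3d-SN011, 11.5, 12.4 and 9.21 CPM in SN011, 9.87, 9.11 and 11.004 CPM in vehicle and 10.7, 12.7 and 9.01 CPM in sham. The 3d-SN011 values lay just below those of vehicle. Against vehicle the log2 fold change was -0.37 (SE 0.18, adjusted p = 0.107, edgeR), which was no call, though it was one with offsets for GC content and gene length (-0.63, adjusted p = 0.0128), and against SN011 it was called lower, with a log2 fold change of -0.51 and an adjusted p of 0.0376 (edgeR) that was lost without any 1 of SN011 replicates 1 and 2 and 3d-SN011 replicates 2 and 3. Kcns1 made up 68.5%, 60.2% and 44.5% of Kv9 RPKM in 3d-SN011 and 22.2%, 21.0% and 29.5% in vehicle, while Kcns2 made up 18.5%, 31.6% and 40.1% in 3d-SN011 and 74.4%, 73.4% and 65.2% in vehicle. Neither share overlapped between the groups. Kcns3, Kcng2 and Kcng4 stood at 4.65 CPM or less in every library and were not called.

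Kv7 subunits form the M-channel, which acetylcholine closes through muscarinic receptors. Kcnq3, an M-channel subunit, fell by 2.52 on the log2 scale and Kcnq5 by 1.80, both called by edgeR (adjusted p = 1.3e-05 and 0.00347). Kcnq5 was spread widely over the 3d-SN011 libraries, at 12.999, 39.8 and 82.7 CPM.

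Kcnq1, the subunit of the slow cardiac delayed rectifier, averaged 1.27 ± 0.784 CPM in 3d-SN011 and 0.492 ± 0.266 CPM in vehicle (SD, n = 3 each), was not called by edgeR (log2 fold change 1.36, SE 0.56, adjusted p = 0.0530) and was called higher by DESeq2.

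**Figure D3:**
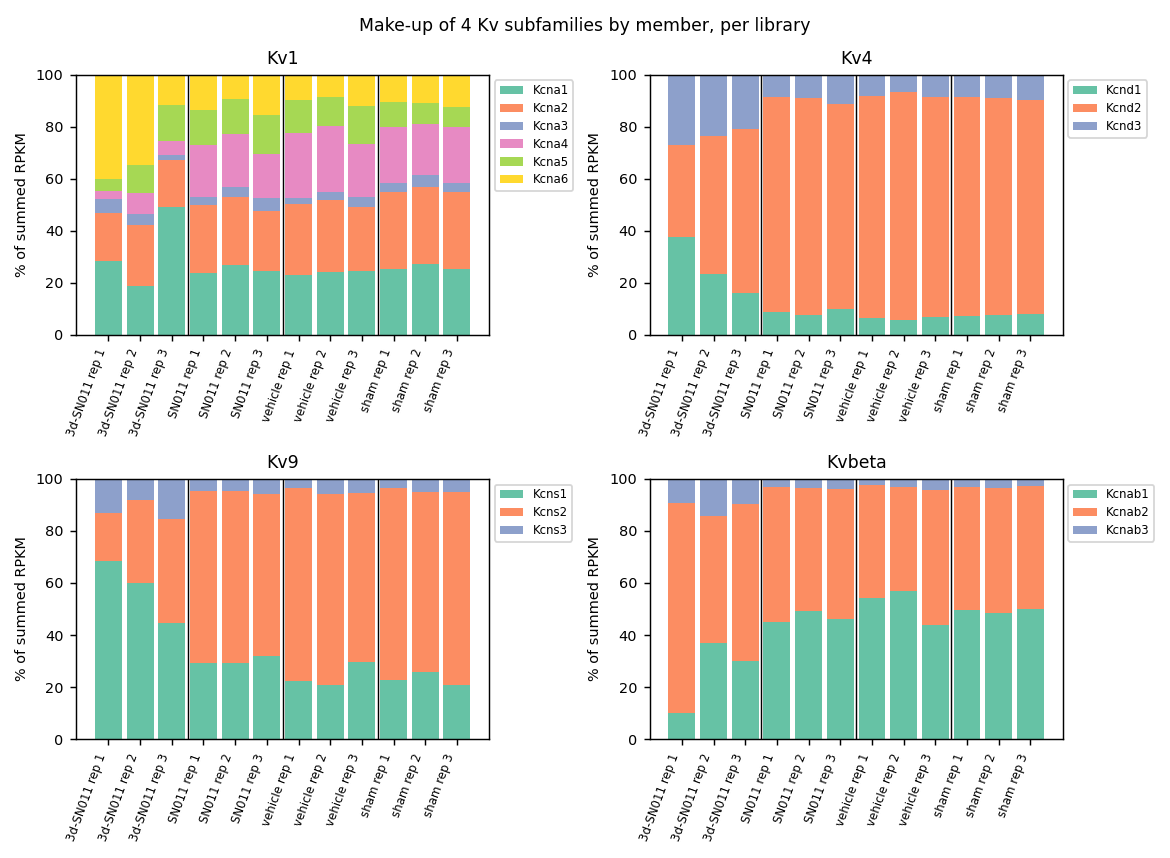
Share of each member in the summed RPKM of its subfamily (stacked bars, percent, from 0 to 100) in each of the 12 libraries, for Kv1, Kv4, Kv9 and the beta subunits. In 3d-SN011 the shares of Kcna4, Kcnd2 and Kcnab1 are smaller than in every other library, and the share of Kcna6 is largest in replicates 1 and 2.

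Kv10 to Kv12 genes encode the ether-a-go-go, ERG and ELK channels. Of the 8, 7 were called lower in 3d-SN011 than in vehicle, where 28.2% of all genes were, and Kcnh8, at 0.877 CPM or less in every library, was not called. Kcnh4 stood at 5.07, 14.6 and 18.7 CPM in 3d-SN011, 98.8, 100.2 and 49.8 CPM in SN011, 87.8, 87.1 and 73.3 CPM in vehicle and 99.7, 85.3 and 80.9 CPM in sham. Kcnh4 encodes an ELK channel, and its 3d-SN011 libraries lay below all others. The log2 fold change against vehicle was -2.69 for Kcnh4 (SE 0.38, adjusted p = 7.46e-05, edgeR). Kcnh3 stood at 25.6, 38.9 and 99.1 CPM in 3d-SN011, 233, 213 and 123 CPM in SN011, 199.9, 197 and 233 CPM in vehicle and 223, 214 and 211 CPM in sham. Also an ELK gene, Kcnh3 had the highest RPKM of the group of 8. For Kcnh3 the log2 fold change of 3d-SN011 over vehicle came to -1.95 (SE 0.39, adjusted p = 0.00097, edgeR). Kcnh2 stood at 19.3, 21.3 and 28.4 CPM in 3d-SN011, 45.5, 46.7 and 38.9 CPM in SN011, 40.5, 38.5 and 50.1 CPM in vehicle and 47.2, 43.8 and 35.7 CPM in sham. Kcnh2 encodes the ERG channel of cardiac repolarisation and fell least of the 7. With a log2 fold change of -0.90, Kcnh2 differed from vehicle at an adjusted p of 0.000536 (SE 0.17, edgeR). Kcnh7 stood at 12.3, 14.3 and 15.4 CPM in 3d-SN011, 24.1, 29.5 and 15.5 CPM in SN011, 25.4, 32.5 and 28.8 CPM in vehicle and 27.6, 46.1 and 38.9 CPM in sham. SN011 replicate 3 came close to the highest 3d-SN011 library. Against vehicle the log2 fold change of Kcnh7 was -1.05 (SE 0.23, adjusted p = 0.00201, edgeR quasi-likelihood test). Kcnh7, an ERG gene as well, was also called lower against SN011 (log2 fold change -0.72, adjusted p = 0.0227, edgeR), a call lost without SN011 replicate 1 or 2 or 3d-SN011 replicate 1. With offsets for GC content and gene length neither call of Kcnh7 held, at -0.46 against vehicle (adjusted p = 0.0868) and -0.28 against SN011 (adjusted p = 0.309).

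**Figure D4:**
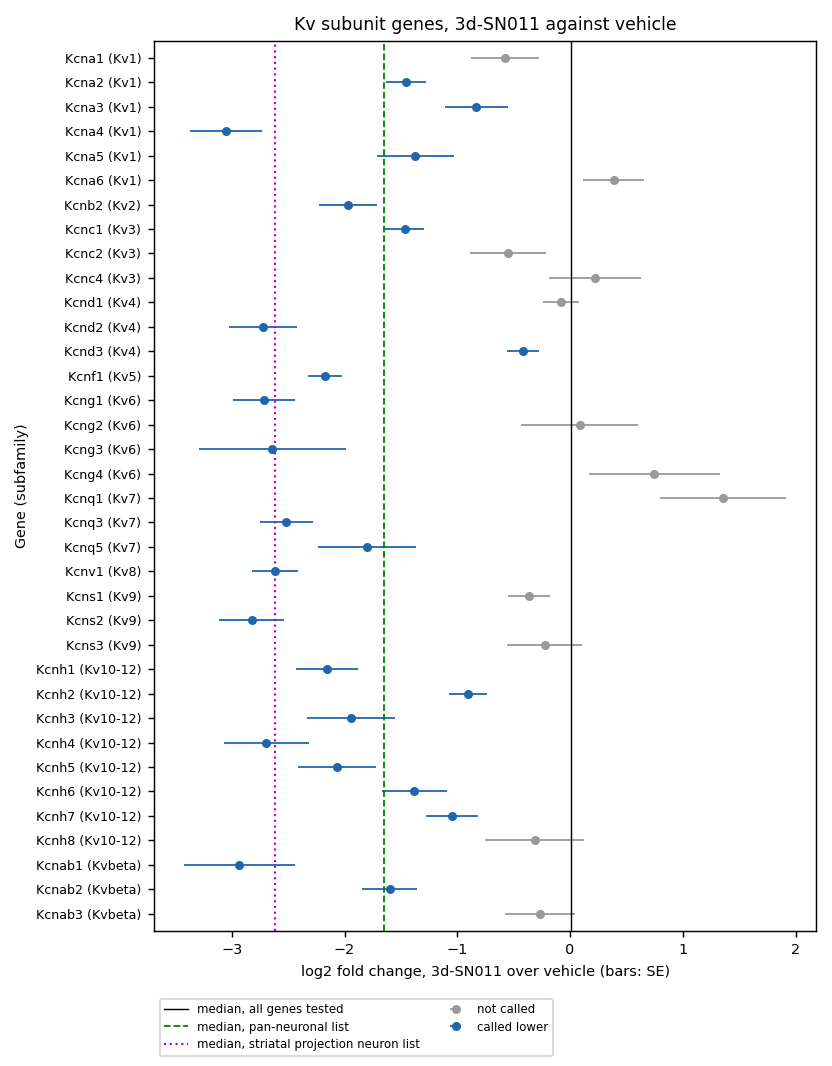
Log2 fold change of 3d-SN011 over vehicle for 36 of the 40 Kv genes (points, with SE bars), by subfamily down the page, with the medians of all genes tested, the pan-neuronal list and the striatal projection neuron list as vertical lines. Blue points were called lower and grey points were not called. The 6 largest falls and that of Kcng3 (-2.64) lie beyond the striatal projection neuron median of -2.62, and Kcnv1 lies close to that median.

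Kv3 subunits let fast-spiking neurons fire at high rates. Kcnc1 stood at 40.7, 62.0 and 49.0 CPM in 3d-SN011, 127, 145 and 99.7 CPM in SN011, 126, 135 and 158 CPM in vehicle and 159.8, 189 and 162 CPM in sham. Its 3d-SN011 libraries lay below the rest. The log2 fold change against vehicle was -1.47 for Kcnc1 (SE 0.18, adjusted p = 2.87e-05, edgeR).

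Kcnc2 and Kcnc4, which were not called, varied between the sham libraries and were chosen for display after their values were seen. Kcnc4 stood at 15.9, 11.9 and 10.6 CPM in 3d-SN011, 9.88, 14.9 and 8.44 CPM in SN011, 8.06, 5.60 and 19.2 CPM in vehicle and 9.04, 19.8 and 16.7 CPM in sham. The summed cortical and thalamic markers of the same libraries were 351.6, 167.1 and 263.8 CPM in 3d-SN011, 101.6, 172.0 and 131.9 CPM in SN011, 75.9, 46.8 and 346.0 CPM in vehicle and 99.8, 403.6 and 277.7 CPM in sham. Within sham and within vehicle the order of the libraries was the same for Kcnc4 and for these markers, while within SN011 and within 3d-SN011 it differed. Kcnc2 stood at 9.01, 9.59 and 8.94 CPM in 3d-SN011, 9.42, 13.7 and 8.82 CPM in SN011, 9.75, 8.65 and 22.008 CPM in vehicle and 14.3, 27.0 and 24.0 CPM in sham. Its 3d-SN011 values were even, although the summed markers were higher in all 3 of those libraries than in vehicle replicates 1 and 2. Of the 7 marker genes, 2 were called higher in 3d-SN011 than in vehicle and 0 lower, where 28.9% and 28.2% of all genes were. Their median log2 fold change was -0.02, with 4 negative and 3 positive, so the sum does not stand for each marker. The part of neighbouring tissue in these values was not tested.

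**Figure D5:**
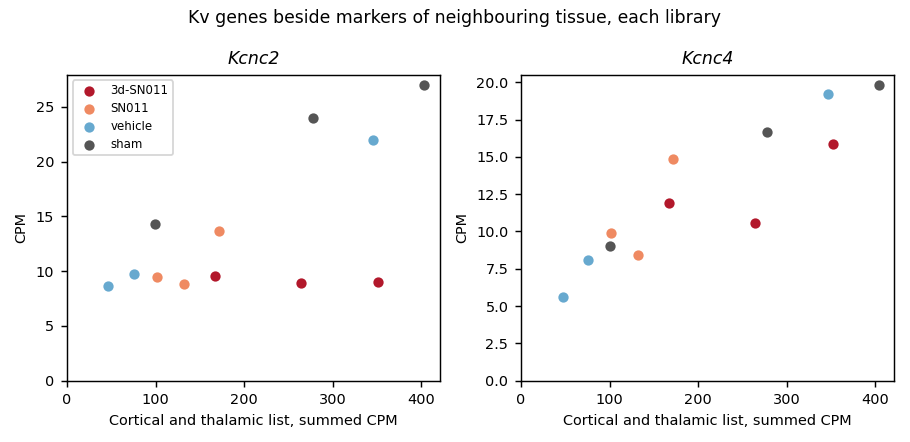
CPM of Kcnc2 and Kcnc4 (vertical axes) against the summed CPM of 7 cortical and thalamic marker genes (horizontal axes), 1 point per library, coloured by group. Within sham and within vehicle, libraries with higher markers hold more of both genes, while within SN011 and within 3d-SN011 the order differs. The 3d-SN011 libraries lie level near 9 CPM for Kcnc2.

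To set Kv genes beside neuronal RNA as a whole, libraries were also scaled to the 12 pan-neuronal genes in place of all genes. On that scale all genes tested moved up by a median log2 fold change of 1.77 in 3d-SN011 against vehicle, and the Kv genes by 0.28. Of the 40, 18 were called higher relative to the list, 11 lower and 11 neither, where 83.6% and 2.24% of all genes were called. Against SN011 the counts were 16 higher, 13 lower and 11 neither, where 80.2% and 2.27% of all genes were called, and the medians were 0.05 for Kv genes and 1.46 for all genes. The scale moves all genes up by nearly the same amount, so a gene whose fall was smaller than that of the list appears higher by construction, and one whose fall was larger appears lower. Values on this scale therefore describe how far each fall lay from that of the list and are no separate evidence of a change.

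The 6 genes with the largest falls against vehicle, picked in the same libraries, lay below the pan-neuronal list, with Kcna4 at -1.37, Kcnab1 at -1.32, Kcns2 at -1.15, Kcnd2 at -1.06, Kcnh4 at -1.04 and Kcng1 at -1.04 on the log2 scale. Against SN011 the same 6 lay at -1.24, -1.23, -1.11, -0.92, -1.30 and -0.98 in the same order. Scaled to the 14 striatal projection neuron genes instead, 0 Kv genes were called lower in either comparison. There 23 of the 40 were called higher against vehicle and 21 against SN011. Of the 18537 genes tested, 17146 and 16984 were called in either direction on that scale. Kcnd2, Kcng1 and Kcns2 turned to positive values in both comparisons, and Kcnh4 against vehicle. Kcnd3, Kcna3, Kcnh2 and Kcnh7 were called lower by TMM, but by less than the list, and so came out higher on the pan-neuronal scale against vehicle, at 1.32, 0.97, 0.83 and 0.69. Against SN011 this held for Kcns1, Kcnh7 and Kcnh2, at 0.98, 0.76 and 0.49. The call of Kcna3 on the pan-neuronal scale was lost without vehicle replicate 1, vehicle replicate 2, 3d-SN011 replicate 1 or 3d-SN011 replicate 2, and that of Kcnh2 against SN011 without SN011 replicate 1 or 2 or 3d-SN011 replicate 1 or 3.

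No Kv gene was called between SN011 without the prefix and vehicle. Of the 40, 0 were called by edgeR and 0 by DESeq2, where 0.0108% of all genes were called higher and 0.00539% lower by edgeR. At an unadjusted p under 0.05 there was 1 Kv gene, against 11.1% of all genes: Kcnv1, with a log2 fold change of -0.46 (SE 0.19, unadjusted p = 0.0331, adjusted p = 0.395, edgeR quasi-likelihood test). The median log2 fold change was -0.14, against -0.0077 for all genes, with 26 genes negative and 14 positive. Kcnv1, Kcnd2 and Kcng1 were lower in every SN011 library than in every vehicle library and Kcng4 was higher, 3 and 1 of the 40 genes, where 7.32% and 9.01% of all genes did so.

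The SN011 libraries differed among themselves. Replicate 3 held the lowest value of its group for 31 of the 40 genes and replicate 2 for 3, against 38.5% and 35.4% of all genes. Replicate 2 held the highest value for 33, a count for which no share over all genes was computed. Median differences from the sham mean were -0.27, -0.06 and -0.57 on the log2 scale in SN011 replicates 1 to 3. In the same libraries the pan-neuronal medians were -0.35, -0.09 and -0.69, the microglia list summed to 582.4, 439.9 and 1427 CPM, and the astrocyte list to 2112, 1198 and 5080 CPM. The part of these markers in the Kv values was not tested.

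Vehicle and sham differ in the occlusion, and that comparison gave 0 Kv genes called by edgeR and 0 by DESeq2, where 0% of all genes were called by edgeR in either direction. None had an unadjusted p under 0.05, against 2.52% of all genes, and the smallest was 0.0587 for Kcnc2. The median log2 fold change was -0.13, against 0.0051 for all genes, with 33 genes negative and 7 positive. Libraries did not overlap for 6 lower genes, among them Kcnc1, Kcna2, Kcnd1, Kcnd3 and Kcna1, with log2 fold changes of -0.14 to -0.28, and for 1 higher, Kcna5. Kcna5 stood at 27.8, 24.7 and 31.0 CPM in vehicle and 22.1, 19.6 and 17.8 CPM in sham, a log2 fold change of 0.49 (SE 0.34, adjusted p = 1, edgeR). Non-overlap occurred in 6.29% of all genes for lower and 6.86% for higher, and these genes were named after their values were seen.

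By RPKM in sham striatum the Kv genes ranged down from Kcnab1 and Kcnab2. Further high levels were those of Kcnd2 (46.0 RPKM) and Kcnh3 (37.5), and the lowest were Kcng2 (0.345), Kcnq1 (0.163) and Kcnh8 (0.129). Of the 39 pairs of neighbours in this order, 26 overlapped in their sham libraries, among them Kcnab1 with Kcnab2, so the order within such pairs is not settled beyond their spread.

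RNA of most tested genes for proteins that assemble with Kv channels was lower too. Of 20 listed partners, 16 were tested. In 3d-SN011 against vehicle 13 were called lower and 0 higher, where 28.2% and 28.9% of all genes were, with a median log2 fold change of -1.72. Kcnip1 (0.21), Kcne4 (0.83) and Cntn2 (-0.06) were not called. The largest falls were in Kcne2, a single-span beta subunit with high expression in choroid plexus, and Kcnip2, a calcium-binding partner of Kv4. Kcne2 averaged 1.74 ± 2.01 CPM in 3d-SN011 and 13.9 ± 4.59 CPM in vehicle, with a log2 fold change of -2.99 (SE 0.93, adjusted p = 0.0149, edgeR). Choroid plexus and ependyma markers, which include Kcne2 itself, summed to 97.4 to 808.0 CPM in 3d-SN011 and 1298 to 2651 CPM in vehicle. Of these 5 genes, 3 were called lower in 3d-SN011 than in vehicle and 1 higher. Their part was not tested. Kcnip2 averaged 73.4 ± 45.1 CPM in 3d-SN011 and 406.6 ± 18.4 CPM in vehicle, with a log2 fold change of -2.47 (SE 0.40, adjusted p = 0.000200, edgeR). The smallest falls were in Kcnip3, at -0.45, and in Amigo1, a Kv2 partner, at -1.10. Against SN011, 13 of 16 were called lower, where 22.9% of all genes were.

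Potassium channel genes outside the Kv families included calls in both directions. Of 36 inward rectifier, tandem-pore, calcium- and sodium-activated and HCN genes, 7 were called higher and 19 lower in 3d-SN011 than in vehicle, where 28.9% and 28.2% of all genes were, with a median log2 fold change of -0.71. The largest rises were in Kcnn4, an intermediate-conductance calcium-activated channel of immune cells and microglia, at 3.32, and in the tandem-pore channel gene Kcnk6, at 3.06. The largest falls were in Kcnj13, an inward rectifier gene of choroid plexus, at -2.95, and in Kcnj4, an inward rectifier gene of striatal neurons, at -2.03. Against SN011, 5 were called higher and 18 lower, where 23.6% and 22.9% of all genes were.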

How the data were processed

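PolyA+ RNA of striatum was sequenced as read pairs on an Illumina instrument, per the labels' protocols. Each library has a deposited table of raw counts by Ensembl gene ID. The submitters' processing notes name HISAT2, featureCounts and mm10. Their versions, the annotation release and the strand setting were not given in the sources used here. Of 54532 gene IDs, 54409 were matched to GENCODE M21 (GRCm38), from which symbols, positions (counted from 1) and exonic lengths were taken. Exons of 12 Kv genes overlap another gene, 11 of them on the opposite strand, and 2 by at least 10% of their length.

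The fit used edgeR 4.0.16 (R 4.3.3). filterByExpr with a minimum count of 10 chose the genes tested, libraries were scaled by TMM, and all 12 libraries were fitted in 1 quasi-likelihood model with group as its only term. Standard errors were derived as log2 fold change over the square root of F. CPM and RPKM were computed from the TMM-scaled counts, with exonic length for RPKM. Scaling to a gene list set libraries equal in the mean log count of that list, with 0.5 added to each count. Alternatives were RLE scaling, DESeq2 1.42.0, no filter, GC and length offsets (mgcv 1.9.3), fits of 6 libraries, the replicate number as a block, a 1.5-fold threshold and leaving out each library. Plots were made in Python 3.11.15 with matplotlib 3.10.9.

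The members, lists and tests were chosen with earlier results of these data known. Values of every library are given for the Kv gene of each subfamily with the highest mean RPKM, for genes called higher, for the 6 largest falls with a mean of at least 1 CPM, and for genes whose call reversed relative to pan-neuronal genes. Some Kv genes enter the counts but are not reported here by name. Other genes named with library values were chosen after their values were seen. No pair of libraries of 1 group matched within sampling noise (chi-square per degree of freedom of 4.79 to 78.2), and all were treated as separate samples. Simulated counts for 18537 genes were used to test the fit. In a simulated 3d-SN011 against vehicle it recovered 16% of genes changed 1.5-fold, 38% changed 2-fold, 98% changed 4-fold and 98% changed 8-fold, and 3 of its 128 calls were false. In a simulated SN011 against vehicle it recovered 20%, 42%, 96% and 100% of these, and 8 of its 137 calls were false. Each simulation changed 50 genes per fold, drawn from genes with higher mean counts, and left all other genes unchanged. The recovery rates therefore need not hold for Kv genes with low counts or where many genes differ.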

Additional observations from a re-analysis of the deposited data

How the results depend on the processing

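Counts of called Kv genes in vehicle against sham and SN011 against vehicle were 0 under every alternative run. The count called lower in 3d-SN011 stayed within 1.5 times of 27 against vehicle and of 26 against SN011 under all alternatives, and leaving out single libraries gave 24 to 27 in both. The count called higher against vehicle was 2 with DESeq2, Kcnq1 among them, and 1 to 2 without single libraries, as Kcnq1 passed without vehicle replicate 2 or 3d-SN011 replicate 2 and Kcna6 without 3d-SN011 replicate 3. Against SN011 it was 0 with a 1.5-fold threshold and 1 to 2 without single libraries, Kcna6 passing without 3d-SN011 replicate 3.

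Relative to striatal projection neuron genes, 0 Kv genes were lower against vehicle and 0 against SN011, while 23 and 21 were called higher. Of all 18537 genes, 17146 and 16984 were called there in either direction. On that scale Kcnd2, Kcng1, Kcns2 and Kcnh4 turned to 0.11, 0.20, 0.078 and 0.051 against vehicle, and Kcnd2, Kcng1 and Kcns2 to 0.24, 0.26 and 0.12 against SN011 (log2). The change follows from the scale itself, since these genes fell about as far as that list. Relative to pan-neuronal genes, a fit of the 6 libraries gave 8 lower against SN011, where the cause was not tested. Without single libraries the counts relative to pan-neuronal genes were 16 to 19 higher and 8 to 14 lower against vehicle, and 14 to 16 higher and 9 to 15 lower against SN011. In fits of 6 libraries the calls of Kcnd3 and Kcna3 against vehicle, of Kcnh7 and Kcns1 against SN011, and of Kcnh2 relative to pan-neuronal genes against SN011 were lost. With GC and length offsets Kcns1 was also called against vehicle.

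Same-numbered libraries did not deviate together (r of -0.29 to 0.14), so the numbers give no pairing. With a replicate block, 28 of the 40 Kv genes were called in either direction in 3d-SN011 against vehicle and 27 against SN011. Of all 18537 genes, 10261 and 8142 were. Relative to pan-neuronal genes the block gave 28 and 26 Kv genes, and 15645 and 14907 of all genes. It gave 0 Kv genes in vehicle against sham and in SN011 against vehicle. The count minimum of the rule gave 41 genes at 5 and 38 at 20. Over all genes, SN011 against vehicle gave 3 calls, but 432 with DESeq2, 601 with no filter, 19 with a replicate block, 5 in a fit of 6 libraries, 521 without SN011 replicate 2, 6 without SN011 replicate 3, 1 without SN011 replicate 1 and 0 without any 1 vehicle library. Vehicle against sham gave 0, but 5 with DESeq2, 5 with no filter, 1 with GC and length offsets and 16 in a fit of 6 libraries. The cause was not tested. Kcnh8, at 0.877 CPM or less, rests on few counts, and no difference was detectable there at this depth.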
